A study of Mus musculus with 12 samples.

Results

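The subject is the interaction of the 5xFAD genotype with Ulk1 overexpression in mouse hippocampus, read from all 12 of the 12 RNA libraries of the series, with 3 libraries in each of 4 groups. The groups were mice carrying both alterations (labelled 5xFAD;Ulk1OV and called double transgenic here), 5xFAD mice, Ulk1OV mice and WT mice. 5xFAD is a model of amyloid deposition that carries mutant human APP under a neuronal Thy1 promoter. Ulk1OV is given in the labels as overexpression of Ulk1, with no promoter, construct, target cell or delivery route, and the labels give neither the age nor the sex of any mouse, nor whether each library is a separate animal. Every p-value below is thus a statement about variation among 12 libraries, part of which may be technical.

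The interaction asks whether Ulk1 overexpression acted differently on the 5xFAD background. For each gene it is the double transgenic to 5xFAD difference minus the Ulk1OV to WT difference, on a log2 scale. The same number is reached by adding the double transgenic and WT levels and subtracting the 5xFAD and Ulk1OV levels. A positive value therefore means that double transgenic and WT stood above 5xFAD and Ulk1OV, and the gap between the means of these 2 pairs is the interaction divided by 2. All fold values below are log2 interactions with their standard error (SE) unless another comparison is named, and a gene was called at a Benjamini-Hochberg adjusted p under 0.05 in edgeR's quasi-likelihood test.

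ULK1 is the kinase that starts autophagy. It works in a complex with the scaffold FIP200 (gene Rb1cc1) and is held back by mTOR and switched on by AMPK, and the ATG proteins that follow attach LC3 to the growing autophagosome, which delivers its cargo to the lysosome. In the hippocampus this route clears damaged mitochondria and aggregated protein, and the 5xFAD model is known for plaque, reactive glia and loss of synapses.

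Total counts ran from 16149992 to 18547132 per library, and 17227 genes passed edgeR's default filter on low counts. One label was contradicted by the data. App, the gene of the amyloid precursor, stood at 2587, 2201 and 1310 CPM (counts scaled to the library total) in the 3 double transgenic libraries and at 2667, 2346 and 2565 CPM in 5xFAD. It stood at 1493, 1241 and 1378 CPM in Ulk1OV and at 1366, 1406 and 1472 CPM in WT, so the library labelled 5xFAD;Ulk1OV replicate 3 lay among the libraries without 5xFAD. Prnp, the prion protein gene, placed that library in the same way, at 954 CPM against 2202 and 2067 CPM in the other double transgenic libraries. The interaction counts and the list counts that change are given with and without this library. Ulk1 itself measured 97.12, 98.52 and 85.05 CPM in the double transgenic libraries, 86.26, 63.51 and 69.96 CPM in 5xFAD, 102.0, 87.66 and 84.61 CPM in Ulk1OV and 77.58, 81.77 and 74.07 CPM in WT. Its log2 difference was 0.35 ± 0.11 in double transgenic against 5xFAD (SE, edgeR adjusted p = 0.144) and 0.23 ± 0.11 in Ulk1OV against WT (SE, edgeR adjusted p = 0.229), so neither rise was called. Its interaction was 0.12 ± 0.16 (SE, edgeR adjusted p = 0.664, and 0.409 without the doubted library).

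The interaction called 2197 of 17227 genes, or 12.8%, of which 1171 (6.8%) were higher and 1026 (5.96%) lower in the double transgenic and WT libraries. Without the doubted library it called 2539 of 17603 genes (14.4%), and with each library corrected for its trend over transcript GC content and length it called 890 (5.17%), 411 higher and 479 lower. No comparison within the pairs came near these counts. Double transgenic against WT called 0 genes (0%) in edgeR and 0 in DESeq2, with 388 genes at an unadjusted p under 0.05. 5xFAD against Ulk1OV called 1 gene (0.0058%), the secreted ER stress factor Manf, which was lower in 5xFAD. The averaged effect of 5xFAD called 0 genes (0%) in edgeR and 15 in DESeq2, with 802 at an unadjusted p under 0.05, and the averaged effect of Ulk1 overexpression called 0 (0%) in edgeR and 42 in DESeq2, with 1521 at an unadjusted p under 0.05.

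The simple comparisons were uneven. Ulk1OV against WT called 891 genes (5.17%), 368 higher and 523 lower, and double transgenic against Ulk1OV called 1051 (6.1%), 632 higher and 419 lower. DESeq2 called 1850 and 2035 genes in these comparisons, and edgeR after the GC and length correction called 508 (267 higher, 241 lower) and 398 (209 higher, 189 lower). Double transgenic against 5xFAD called 8 genes (0.0464%), all of them higher, in edgeR, 723 in DESeq2 (391 higher, 332 lower) and 0 after the correction, with 3003 at an unadjusted p under 0.05. 5xFAD against WT called 0 (0%) in edgeR and 141 in DESeq2, with 2139 genes at an unadjusted p under 0.05. App itself was not called there, at 0.84 ± 0.18 (SE, edgeR adjusted p = 0.18), so 0 calls does not show an absent effect. Without the doubted library edgeR called 1183 genes in Ulk1OV against WT and 1579 in double transgenic against Ulk1OV. It then called 12 in double transgenic against 5xFAD and 3 in 5xFAD against WT. These 4 comparisons share their groups with the interaction. The comparisons that involve Ulk1OV and one of the double transgenic or WT groups thus called more genes than those that involve 5xFAD in both tools. Among 12019 genes with a mean of at least 5 CPM, the interaction held 52.5% of the sum of squares between the 4 group means, against 27% for 5xFAD and 20.4% for Ulk1 overexpression.

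**Figure D1:**
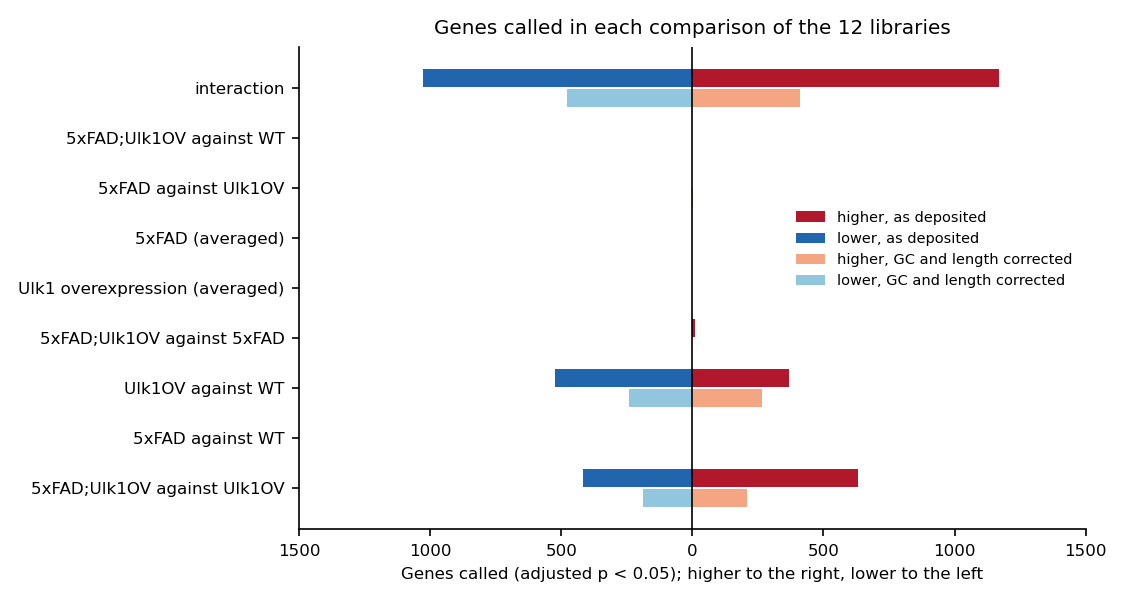
Genes called in each comparison, as counts of genes on the horizontal axis, higher to the right and lower to the left, with the deposited counts in the dark bars and the GC and length corrected counts in the pale bars. The interaction has the longest bars, at 1171 and 1026 genes, while double transgenic against WT has none.

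Many genes had double transgenic with WT on one side and 5xFAD with Ulk1OV on the other. Both pairs were taken as alike where the 2 differences within pairs were each smaller than the gap between the pairs divided by 2. This held for 1194 of the 2197 called genes (54.3%), 583 higher and 611 lower in the double transgenic and WT libraries, against 3097 (18%) of all genes tested. It is easier to meet where the gap is large, so the share among called genes is a description. Without the doubted library 1213 genes met it, and 463 did once the GC and length trends were taken out. In 1761 of the called genes (80.2%) neither difference within a pair had an unadjusted p under 0.05.

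A stricter view asks whether all 6 double transgenic and WT libraries lay on one side of all 6 5xFAD and Ulk1OV libraries. They did in 855 of all genes tested (4.96%), 396 higher (2.3%) and 459 lower (2.66%) in the double transgenic and WT libraries. Of the called genes, 773 (35.2%) showed this, and 611 of them also had both pairs alike. Among the called genes whose pairs were not alike, the group farthest from the mean of the other 3 was Ulk1OV in 735 genes, double transgenic in 132, 5xFAD in 92 and WT in 44. The called genes thus held both a pattern of pairs and a pattern in which Ulk1OV stood alone.

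Among called protein-coding genes with a mean of at least 5 CPM and no overlap between the pairs, the largest positive interaction was that of Atp5k (chromosome 5, 108433244 to 108434448, minus strand, GRCm38), which encodes subunit e of the mitochondrial ATP synthase. Its levels were 68.01, 65.54 and 69.69 CPM in the double transgenic libraries, 38.33, 14.6 and 14.06 CPM in 5xFAD, 10.36, 15.69 and 7.9 CPM in Ulk1OV and 63.0, 64.77 and 68.85 CPM in WT. The double transgenic and WT libraries were nearly level with each other and all above the highest 5xFAD library. The interaction was 4.14 ± 0.45 (SE, edgeR adjusted p = 0.00275). It was 3.69 after the GC and length correction (edgeR adjusted p = 0.00191), and the edgeR adjusted p without the doubted library was 0.0017.

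Subunits of the respiratory chain encoded in the nucleus were mostly on the same side. Of complex I subunits 36.1% were called, against 12.8% of all genes. Of 36 complex I subunits tested, 12 were higher and 1 was lower in the double transgenic and WT libraries (13 and 0 without the doubted library), with a median of 0.31 against -0.01 over all genes. Ndufa1, an accessory subunit on chromosome X (37187588 to 37191163, minus strand), stood at 62.25, 53.6 and 49.93 CPM in the double transgenic libraries, 32.84, 27.57 and 30.21 CPM in 5xFAD, 29.76, 37.76 and 28.11 CPM in Ulk1OV and 54.31, 44.62 and 50.98 CPM in WT. No library of the double transgenic and WT groups reached down to those of 5xFAD and Ulk1OV, and the interaction was 1.52 ± 0.18 (SE, edgeR adjusted p = 0.00275). Ndufa2, Ndufa3 and Ndufb6, also accessory subunits, stood at 1.51, 1.49 and 1.10 with no overlap between the pairs. Ndufa10 was the 1 lower member, at -0.38.

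Complexes II to IV had 6 of 25 nuclear subunits higher and 0 lower, with or without the doubted library. Of these subunits 24% were called, and of ATP synthase subunits 29.4%, against 12.8% of all genes. Uqcrh, the hinge protein of complex III, measured 158.1, 160.3 and 179.8 CPM in the double transgenic libraries, 125.5, 126.6 and 107.5 CPM in 5xFAD, 101.6, 136.5 and 109.3 CPM in Ulk1OV and 161.2, 162.2 and 158.1 CPM in WT. The pairs did not overlap, at 0.94 ± 0.15 (SE, edgeR adjusted p = 0.00543). The ATP synthase list had 5 of 17 members higher and 0 lower, among them Atp5e and Atp5g3, which encode the epsilon subunit and a c-ring protein, at 1.54 and 1.60. After the GC and length correction 7 complex I, 4 complex II to IV and 3 ATP synthase genes were called higher and 3, 1 and 1 lower.

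Genes of the mitochondrial genome lay mostly on the other side. Of the protein genes 53.8% were called, against 12.8% of all genes. Of 13 protein genes, 7 were lower and 0 higher in the double transgenic and WT libraries (8 lower without the doubted library, 4 with the correction), with a median of -1.01. mt-Nd6, a complex I subunit and the only protein gene on the light strand, stood at 766.5, 714.7 and 938.0 CPM in the double transgenic libraries, 1144, 1392 and 1224 CPM in 5xFAD, 1561, 1827 and 1662 CPM in Ulk1OV and 1085, 975.8 and 988.4 CPM in WT. All 6 double transgenic and WT libraries lay below the others, with Ulk1OV the highest group, at -1.36 ± 0.16 (SE, edgeR adjusted p = 0.00275). The annotations of mt-Nd6 and mt-Nd5 overlap at their ends on opposite strands, and reads in that short stretch cannot be told apart without strand. mt-Co1 of complex IV stood at -1.10 ± 0.23 (SE, edgeR adjusted p = 0.0105).

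Prefoldin and the TCEAL and BEX family had 50% and 54.5% of members called, against 12.8% of all genes. All 3 called prefoldin genes of 6 tested were higher, and the TCEAL and BEX family, small X-linked neuronal proteins, had 6 of 11 members higher and 0 lower; both counts were the same without the doubted library, and with the correction they were 2 and 5. Tceal5 (chromosome X, 136200948 to 136203876, minus strand) measured 67.73, 69.69 and 51.77 CPM in the double transgenic libraries, 39.46, 25.94 and 35.73 CPM in 5xFAD, 33.82, 38.4 and 36.56 CPM in Ulk1OV and 58.54, 59.92 and 56.03 CPM in WT. Both pairs were alike and did not overlap, at 1.59 ± 0.20 (SE, edgeR adjusted p = 0.00275). Pfdn6, a subunit of the prefoldin complex that hands unfolded actin and tubulin to their chaperonin, stood at 1.43 ± 0.18 (SE, edgeR adjusted p = 0.00275). Tceal3, Tceal5, Pfdn6, Ndufa1 and Ndufa2 were also 5 of the 8 genes called in double transgenic against 5xFAD; the other 3, Myl6, Ddrgk1 and Isoc2a, were chosen after their values were seen.

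Of cytosolic ribosomal proteins 21.3% were called, of mitochondrial ones 20.8% and of proteasome subunits 15.6%, against 12.8% of all genes. Proteins of the cytosolic ribosome had 11 of 61 genes higher and 2 lower, with or without the doubted library, and 7 higher and 6 lower after the correction. Rps29 and Rpl28 stood at 1.55 and 1.47 with no overlap between the pairs, while Rps12 and Rps26 stood at -0.90 and -0.73. Many ribosomal protein genes have near-identical pseudogenes, so their counts are uncertain. The mitochondrial ribosome had 7 of 48 genes higher and 3 lower (3 and 4 after the correction), with Mrpl1 at -0.98. The proteasome had 3 of 32 higher and 2 lower (4 and 2 without the doubted library, 2 and 5 after the correction), among them Psmd1, a scaffold of the regulatory particle, at -0.71 with no overlap.

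**Figure D2:**
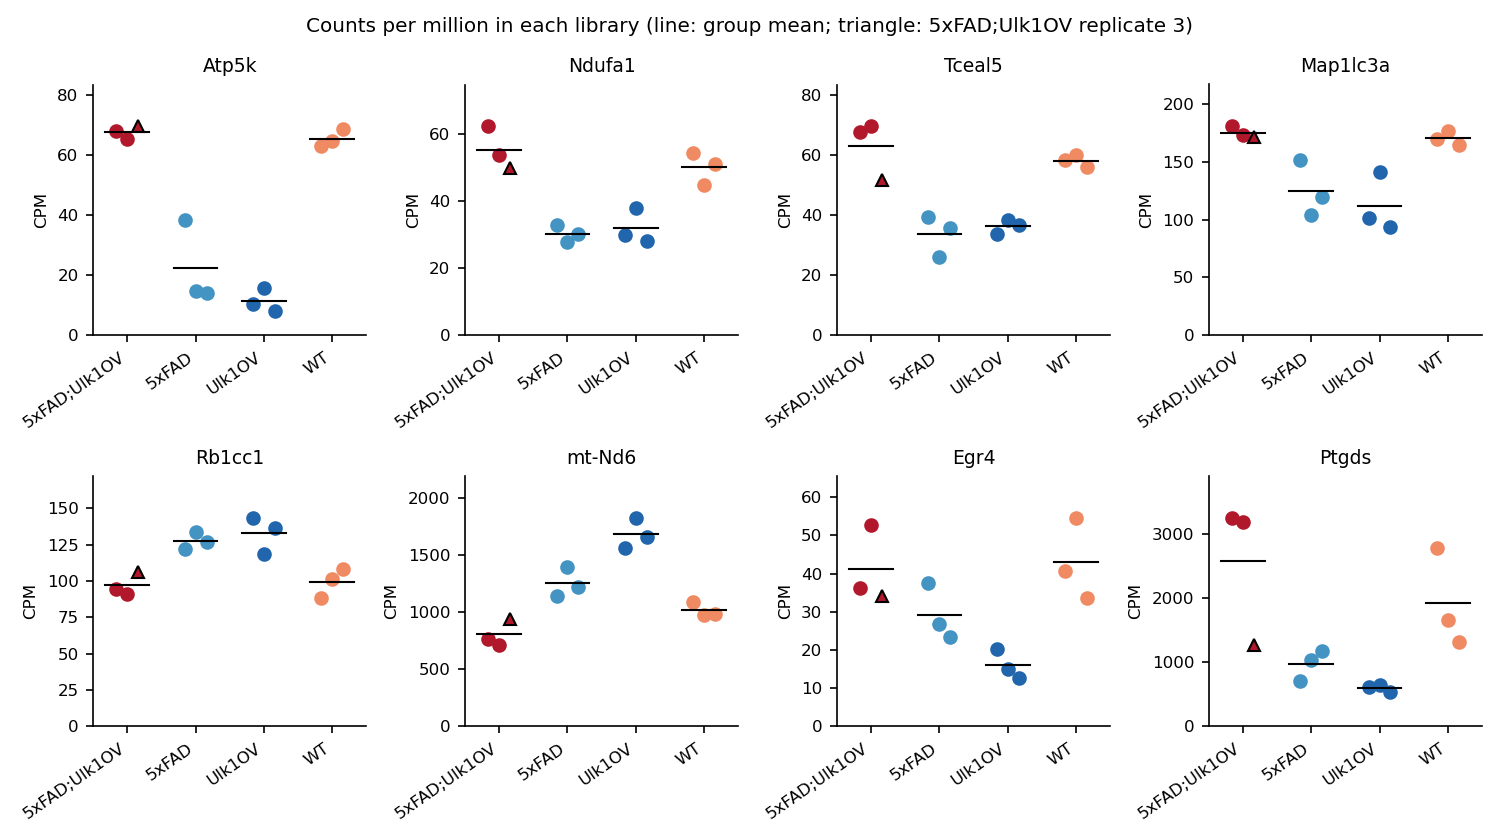
CPM of 8 genes in every library by group, with a line at each group mean and a triangle for the doubted library. In Atp5k, Ndufa1, Tceal5 and Map1lc3a the double transgenic and WT libraries lie above those of 5xFAD and Ulk1OV, in Rb1cc1 and mt-Nd6 below them, and in Egr4 the Ulk1OV libraries lie apart.

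Autophagy genes were called in 18.2% of cases, near the 12.8% of all genes. Of 33 genes of the ULK complex and autophagosome formation, 2 were higher and 4 lower in the double transgenic and WT libraries (3 and 4 without the doubted library, 1 and 4 after the correction), and the median was -0.02. Rb1cc1, the scaffold that binds ULK1 (chromosome 1, 6206197 to 6276648, plus strand), measured 94.66, 91.06 and 106.4 CPM in the double transgenic libraries, 122.3, 133.6 and 126.9 CPM in 5xFAD, 143.5, 118.9 and 136.6 CPM in Ulk1OV and 88.63, 101.1 and 108.0 CPM in WT. The double transgenic and WT libraries were all lower, at -0.81 ± 0.14 (SE, edgeR adjusted p = 0.00634). Map1lc3a, one of the LC3 genes (chromosome 2, 155276297 to 155278073, plus strand), measured 181.0, 173.0 and 171.7 CPM in the double transgenic libraries, 151.4, 104.4 and 119.2 CPM in 5xFAD, 101.5, 141.0 and 93.33 CPM in Ulk1OV and 170.0, 176.7 and 164.6 CPM in WT. Here the double transgenic and WT libraries were all higher, at 1.09 ± 0.21 (SE, edgeR adjusted p = 0.00824).

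The transcripts of these autophagy genes also differed in base composition, which the calls followed across all genes (given further on). The Map1lc3a transcript is 1112 bases long with 63.1% G and C, and the Rb1cc1 transcript is 7607 bases long with 39.1%. Their first 90 coding bases, from GENCODE M21 on GRCm38 and with every G and C in capitals, hold 59 and 38 of these letters.
Map1lc3a: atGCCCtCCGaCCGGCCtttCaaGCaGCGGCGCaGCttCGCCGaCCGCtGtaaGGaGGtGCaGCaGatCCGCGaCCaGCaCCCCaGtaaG
Rb1cc1: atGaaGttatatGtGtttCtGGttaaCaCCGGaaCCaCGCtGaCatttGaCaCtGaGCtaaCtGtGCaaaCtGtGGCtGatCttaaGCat
After the GC and length correction Rb1cc1 stood at -0.44 and was still called (edgeR adjusted p = 0.027), while Map1lc3a stood at 0.47 and was not (edgeR adjusted p = 0.0754). Atg5, which is joined to Atg12 in the enzyme that attaches LC3, stood at -0.66 with no overlap and at -0.51 after the correction. Atg12 stood at -0.40, Tax1bp1, a cargo receptor, at -0.51, and Gabarapl2, an LC3 relative, at 0.52.

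Of mTOR and AMPK genes 17.4% were called, of lysosomal genes 20% and of cholesterol synthesis genes 16.7%, against 12.8% of all genes. Of 23 mTOR and AMPK genes 3 were higher and 1 lower (4 and 1 without the doubted library, 1 and 1 after the correction). Stk11, the kinase LKB1 upstream of AMPK, and Prkag1, a gamma subunit of AMPK, stood at 0.88 and 0.94, and Prkaa1, its catalytic alpha subunit, at -0.50. After the correction they stood at 0.39, 0.72 and -0.20 and none of these 3 was called (edgeR adjusted p = 0.12, 0.086 and 0.353). Of 30 lysosomal genes 4 were higher and 2 lower (6 and 1 without the doubted library, 2 and 2 after the correction), with Npc2, which carries cholesterol out of the lysosome, at 0.68 and the protease Tpp1 at -0.46. Cholesterol synthesis had 4 of 24 genes higher and 0 lower (5 and 1 without the doubted library, 2 and 0 after the correction), with Mvd, a mevalonate pathway enzyme, at 1.39.

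Of the genes induced by neuronal activity, several had Ulk1OV as the lowest group. Of activity-induced transcription factors 44.4% were called and of other activity-induced genes 26.9%, against 12.8% of all genes. Of 18 activity-induced transcription factors 8 were higher and 0 lower in the double transgenic and WT libraries (9 without the doubted library, 5 after the correction), with a median of 0.97. The pairs separated completely in 0 of the 18, which is near the 4.96% of all genes tested. Of the 8 called, 2 had both pairs alike, against 54.3% of all called genes. Egr4 (chromosome 6, 85511121 to 85513589, minus strand) measured 36.21, 52.86 and 34.23 CPM in the double transgenic libraries, 37.42, 26.84 and 23.43 CPM in 5xFAD, 20.34, 15.1 and 12.64 CPM in Ulk1OV and 40.73, 54.64 and 33.63 CPM in WT. The Ulk1OV libraries were the lowest 3 and the other groups overlapped, at 1.92 ± 0.33 (SE, edgeR adjusted p = 0.00662). Junb, a subunit of the AP-1 factor, averaged 81.19 CPM in double transgenic, 65.46 CPM in 5xFAD, 39.76 CPM in Ulk1OV and 99.73 CPM in WT, at 1.64 ± 0.26 (SE, edgeR adjusted p = 0.00506). Egr1, Nr4a1 and Fos stood at 1.13, 1.37 and 1.28, and in Egr1 the WT libraries also lay above those of all other groups. Of 26 other activity-induced genes 6 were higher and 1, Inhba, was lower (1 and 0 after the correction). Vgf, a secreted neuropeptide precursor, stood at 0.90 with no overlap and with both pairs alike, and at 0.19 after the correction (edgeR adjusted p = 0.509).

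Of ER chaperone genes 20% were called, and of cytosolic heat shock genes 13%, against 12.8% of all genes. Of ATF4 and integrated stress response genes 36.8% were called. Of 25 ER chaperone and unfolded protein response genes 4 were lower (Dnajb9, Hsp90b1, Pdia3 and Canx) and 1, Sec61b of the translocon, was higher; 7 were lower and 1 higher without the doubted library, and 1 and 0 after the correction. Canx, the lectin chaperone calnexin, measured 358.3, 370.3 and 395.5 CPM in the double transgenic libraries, 401.1, 419.1 and 403.5 CPM in 5xFAD, 446.0, 435.5 and 443.1 CPM in Ulk1OV and 368.6, 372.4 and 373.1 CPM in WT. Its double transgenic and WT libraries were all lower, at -0.37 ± 0.10 (SE, edgeR adjusted p = 0.0303). Hspa5, the chaperone BiP, averaged 279.2 CPM in double transgenic, 232.7 CPM in 5xFAD, 427.9 CPM in Ulk1OV and 242.0 CPM in WT, at -0.56 ± 0.25 (SE, edgeR adjusted p = 0.157, and 0.0216 without the doubted library).

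Promoters of this list often carry the ER stress element, the parts CCAAT and CCACG 9 bases apart, searched on both strands. It was present in 9 of the 22 list members with a promoter in the RefSeq table (40.9%) and in 21 of all 12264 tested genes with one (0.171%). Of the 9 carriers, Hsp90b1 and Canx were called lower with all 12 libraries, and the other carriers were not called. Dnajb9 and Pdia3 were called lower and had no match. A link between the element and the calls was not tested. The windows of Canx (chr11:50325624-50325923, minus strand) and Hspa5 (chr2:34771840-34772139, plus strand) on GRCm38.p6 are shown with the element in capitals, since both genes carry it. Without the doubted library both were called lower (edgeR adjusted p = 0.0294 for Canx and 0.0216 for Hspa5), and after the correction Canx stood at -0.13 and Hspa5 at -0.43, neither of them called (edgeR adjusted p = 0.486 and 0.355).
Canx: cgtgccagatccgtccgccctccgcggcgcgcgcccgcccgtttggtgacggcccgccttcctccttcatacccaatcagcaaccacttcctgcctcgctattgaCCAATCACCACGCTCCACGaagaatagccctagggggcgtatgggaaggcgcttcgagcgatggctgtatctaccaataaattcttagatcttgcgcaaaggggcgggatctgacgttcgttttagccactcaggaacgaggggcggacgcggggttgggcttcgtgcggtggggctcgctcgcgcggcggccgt
Hspa5: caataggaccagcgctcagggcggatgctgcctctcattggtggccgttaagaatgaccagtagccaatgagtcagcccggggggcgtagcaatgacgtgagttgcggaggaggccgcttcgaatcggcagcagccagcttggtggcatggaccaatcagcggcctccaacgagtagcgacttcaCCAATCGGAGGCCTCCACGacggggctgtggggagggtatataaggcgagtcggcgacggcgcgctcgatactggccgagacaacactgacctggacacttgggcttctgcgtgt
The cAMP response element TGACGTCA, which reads the same on both strands, was found in 0 of 14 promoters of activity-induced transcription factors and in 3.34% of all. A missing match says only that these letters are not in this window.

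Targets of ATF4 and the integrated stress response were on the other side from the ER chaperones, with 7 of 19 higher and 0 lower, the same without the doubted library and 1 and 0 after the correction. Atf4, the transcription factor itself, stood at 0.73 ± 0.15 (SE, edgeR adjusted p = 0.0111), with the Ulk1OV libraries lowest. After the correction it stood at 0.43 and was not called (edgeR adjusted p = 0.13), nor were Ddit4 and Atf5 (0.0938 and 0.313). Slc7a11, the cystine transporter, stood at 0.99 before and 1.37 after the correction, the 1 gene of the list still called. Of 23 cytosolic heat shock genes 2 were lower, Hsp90aa1 at -0.76 and Hspa8 at -0.65, and Hspb1 was higher at 1.51. Without the doubted library 5 were lower, and after the correction 1 was lower and 1 higher.

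Of the 44 lists, fibroblasts at the border of the brain had the largest share of members called. Of 22 meningeal and perivascular fibroblast markers 15 were higher and 0 lower in the double transgenic and WT libraries (19 without the doubted library, 14 after the correction), with a median of 2.24. The called markers were 68.2% of the list, against 12.8% of all genes. None of the 22 was at 0 in every library. Their summed level was 4077, 4064 and 1711 CPM in the double transgenic libraries, 1041, 1570 and 1702 CPM in 5xFAD, 990.7, 1033 and 894.5 CPM in Ulk1OV and 3659, 2296 and 1911 CPM in WT. In this sum, most of which came from Ptgds, the pairs did not overlap, but the doubted library cleared the highest 5xFAD library by little. Marker by marker, the pairs did not overlap in 2 of the 22, against 4.96% of all genes tested. In bulk tissue fewer cells of a type and less RNA per cell cannot be told apart.

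Ptgds, which makes prostaglandin D2 and is abundant in meninges, carried most of that sum. It measured 3259, 3197 and 1276 CPM in the double transgenic libraries, 703.8, 1031 and 1172 CPM in 5xFAD, 617.8, 641.5 and 536.7 CPM in Ulk1OV and 2793, 1656 and 1314 CPM in WT, at 3.09 ± 0.47 (SE, edgeR adjusted p = 0.00438). The lowest double transgenic library was still above the highest 5xFAD library. Fibromodulin (Fmod), the GABA transporter gene Slc6a13 and the retinoic acid enzyme gene Aldh1a2 stood at 2.95, 3.13 and 3.02, and the collagens Col1a1, Col1a2 and Col3a1 at 2.92, 2.85 and 3.94. Endothelial markers had 7 of 18 higher and 0 lower (8 without the doubted library, 3 after the correction). The tight junction gene Cldn5 stood at 1.99. Mural cell markers had 4 of 13 higher and 0 lower (4 and 1), with Vtn at 2.50. Of these lists 38.9% and 30.8% were called, against 12.8% of all genes. Markers of border macrophages and leukocytes had 4 of 14 higher and 0 lower (6 without the doubted library, 2 after the correction). The called ones were 28.6% of the list, against 12.8% of all genes. The class II genes H2-Eb1 and Cd74 stood at 3.61 and 2.28. Of 7 blood genes 1 (14.3%, against 12.8% of all genes), the adult beta globin Hbb-bt, was called, at 3.77 (2 without the doubted library). Hbb-bs stood at 1.28 (edgeR adjusted p = 0.118).

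Choroid plexus markers had 0 of 17 called by edgeR, with 0 at an unadjusted p under 0.05. Their summed level was 6100 CPM in Ulk1OV replicate 1 and 8673 CPM in WT replicate 3 and between 214.7 and 638.1 CPM in the other 10. DESeq2 also called 0. MHC class I genes had 6 of 15 higher and 0 lower (7 without the doubted library, 1 after the correction). The called ones were 40% of the list, against 12.8% of all genes. H2-T23 stood at 1.70 with no overlap between the pairs. The interferon list had 2 of 23 higher and 0 lower (1 without the doubted library, 0 after the correction). That is 8.7% of its members, against 12.8% of all genes. The part of dissection or border tissue in these levels was not tested.

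In the lists of parenchymal glia between 5.26% and 10.5% of members were called, against 12.8% of all genes. Disease-associated microglia had 2 of 23 markers higher, Apoe at 0.81 and Spp1 at 2.44, and 0 lower (4 higher without the doubted library, 1 after the correction). Apoe stood at 0.28 after the correction (edgeR adjusted p = 0.351). Homeostatic microglia had 1 higher and 1 lower of 19, C1qa at 0.70 and P2ry12 at -0.73, and neither was called after the correction, at 0.16 and -0.40 (edgeR adjusted p = 0.576 and 0.0996). Astrocytes had 1 of 17 lower, Serpina3n, a serpin of reactive astrocytes, which measured 47.16, 46.84 and 43.97 CPM in the double transgenic libraries, 56.02, 57.27 and 51.16 CPM in 5xFAD, 62.9, 49.85 and 60.75 CPM in Ulk1OV and 49.02, 35.25 and 42.14 CPM in WT. The double transgenic and WT libraries lay below all others, at -0.71 ± 0.17 (SE, edgeR adjusted p = 0.0175). Oligodendrocytes and their precursors had 1 of 19 and 1 of 10 higher (0 and 1 without the doubted library, 0 and 0 after the correction).

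**Figure D3:**
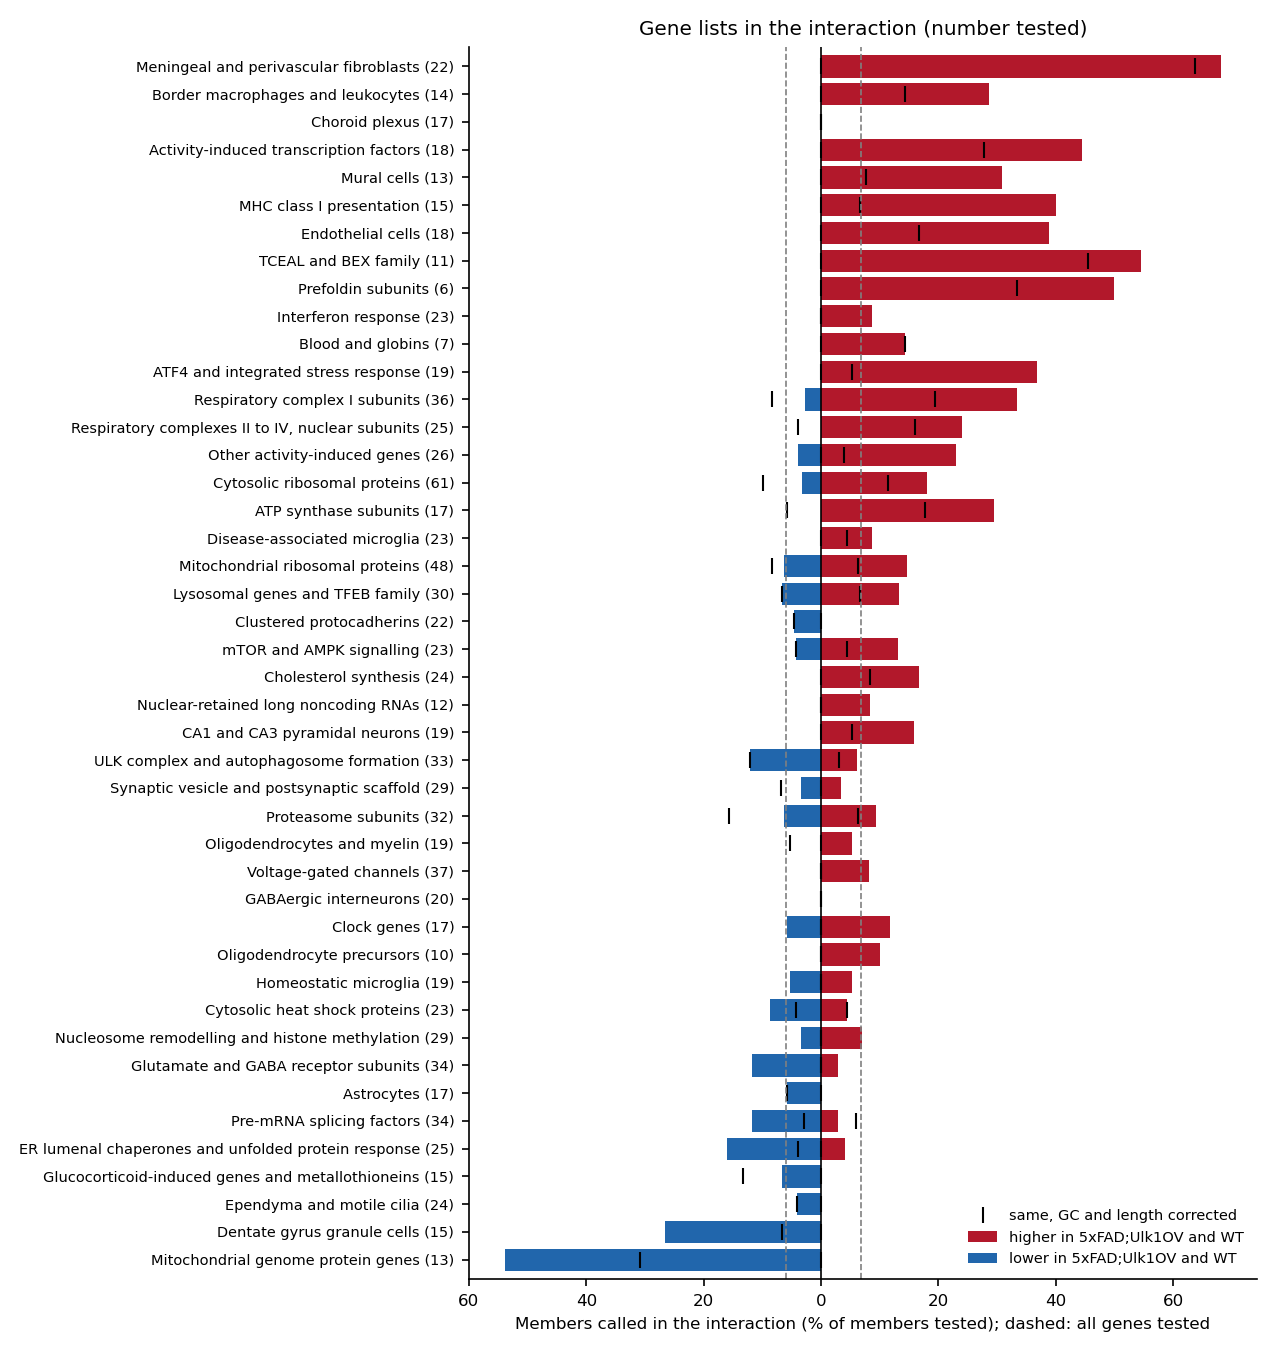
Share of each list's tested members called higher (right) or lower (left) in the double transgenic and WT libraries, in percent, with black ticks for the shares after the GC and length correction and dashed lines at the 6.8% and 5.96% of all genes. Fibroblast markers have the longest bar to the right and genes of the mitochondrial genome the longest to the left.

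In the neuronal lists between 0% and 26.7% of members were called, against 12.8% of all genes. Dentate granule cell markers had 4 of 15 lower and 0 higher (2 without the doubted library, 1 after the correction), with a median of -0.54. Pter, a phosphotriesterase-related gene, stood at -0.81 with no overlap. CA1 and CA3 pyramidal neuron markers had 3 of 19 higher (1 after the correction), and interneuron markers had 0 of 20 called in edgeR, in DESeq2 and after the correction, with 3 at an unadjusted p under 0.05 in edgeR. Glutamate and GABA receptor subunits had 4 of 34 lower (5 without the doubted library), among them the GABA-A subunit genes Gabrb1 at -0.79 and Gabra4 at -0.61 and the kainate receptor gene Grik2 at -0.71, and 1 higher, the NMDA receptor gene Grin2d, at 1.09 (2 higher without the doubted library). None of the 34 was called after the correction. Synaptic scaffold genes had 1 of 29 higher and 1 lower, and voltage-gated channels 3 of 37 higher (4 without the doubted library, 0 after the correction).

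In the remaining lists between 4.17% and 17.6% of members were called, against 12.8% of all genes. Clock genes had 2 of 17 higher and 1 lower (2 and 2 without the doubted library, 0 and 0 after the correction), with the clock output gene Dbp at 1.23. Glucocorticoid-induced genes and metallothioneins had 1 of 15 lower, Mt1 at -1.03 (3 lower without the doubted library, 2 after the correction). Splicing factors had 1 of 34 higher and 4 lower (1 and 10 without the doubted library, 2 and 1 after the correction), with Son at -0.52 and Hnrnpa1 at 0.49. Chromatin regulators had 2 of 29 higher and 1 lower, nuclear long noncoding RNAs 1 of 12 higher (1 also lower without the doubted library), motile cilia genes 1 of 24 lower (3 without it) and clustered protocadherins 1 of 22 lower, which was Pcdhb5 at -1.36.

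The calls followed the base composition and length of the transcript. In the highest of 5 equal bins of genes by GC content 18.6% were called higher and 0.322% lower in the double transgenic and WT libraries, and in the lowest bin 1.2% higher and 17% lower. In the bin with the shortest transcripts 11.5% were higher and 2.74% lower, and in the longest bin 2.69% and 10.7%. Genes called higher had a median GC content of 56% and a median length of 2309 bases, and genes called lower 42.8% and 4232 bases. Across 17111 genes the interaction and GC content had a Spearman rho of 0.51, and genes are not independent replicates. The correction takes out each library's trend over these same GC and length values, so a rho near 0 after it was fixed in advance. It was then 0.02, and 2.9% of the highest GC bin were higher and 4.16% lower, against 1.93% and 1.95% of the lowest.

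**Figure D4:**
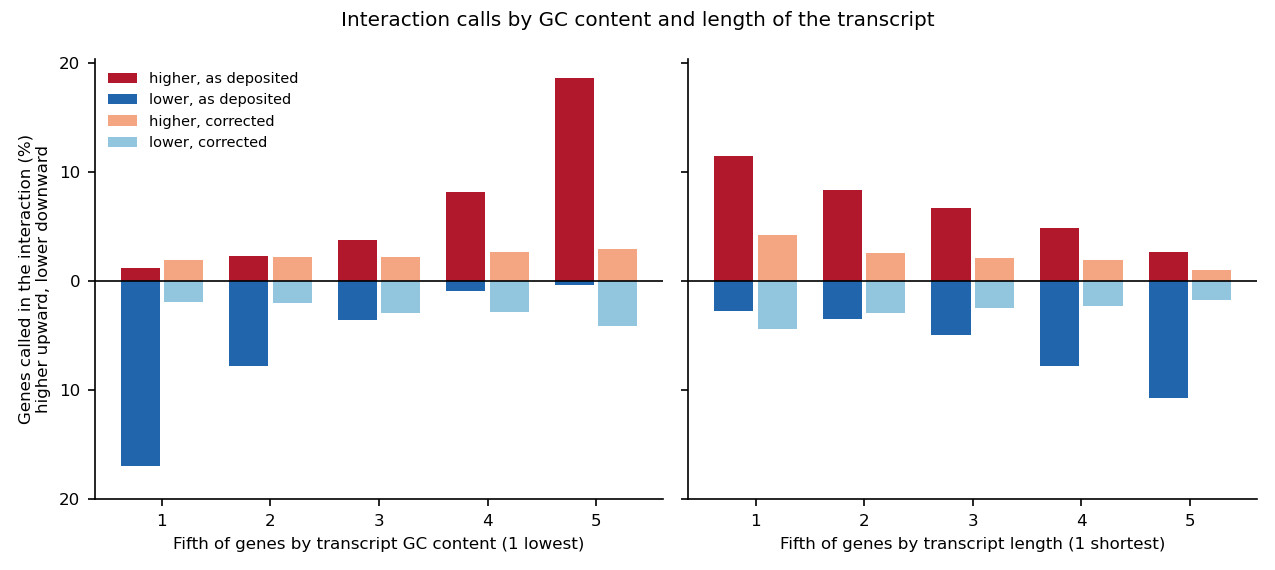
Percent of genes called higher (upward) or lower (downward) in the interaction, in 5 bins of transcript GC content (left) and length (right), with deposited counts in dark and corrected counts in pale bars. The dark upward bars grow with GC content and shrink with length, and the dark downward bars do the reverse. Over GC content the pale bars change less, from 1.93% to 2.9% upward and from 1.95% to 4.16% downward in the lowest and highest bins.

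Of the 2197 called genes 2167 (98.6%) kept their sign after the correction and 632 (28.8%) were called again. Among the 1194 with both pairs alike, 356 were called again. These 356 include Atp5k, Ndufa1, Tceal5, Rb1cc1 and Ptgds. Egr4, whose pairs were not alike, was also called again (edgeR adjusted p = 0.0456). The correction shifted the median of all genes by -0.05.

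The libraries themselves differed in the same way as the genes. These library values come from the same counts as the gene calls, so they are not separate evidence. The permutation test below treats the 6 libraries of a pair as interchangeable, although they come from 2 groups. The mean GC content of the transcripts that the counts fell on was 50.142% ± 0.153 in the double transgenic and WT libraries and 49.614% ± 0.249 in the 5xFAD and Ulk1OV libraries (SD, n = 6 each, exact two-sided permutation p = 0.00433, adjusted over 9 library values 0.0292). The highest 5xFAD library, at 49.98%, was just above the lowest WT library, at 49.928%. The mitochondrial genome took 4.9855% ± 0.748 of counts in the double transgenic and WT libraries and 6.7883% ± 1.15 in the 5xFAD and Ulk1OV libraries (SD, n = 6 each, exact permutation p = 0.00649, adjusted 0.0292). The only double transgenic or WT library above the lowest 5xFAD library was the doubted one, at 5.966%. Total counts and the number of genes seen had adjusted p of 0.801 and 0.779 in the same exact permutation test. On the first principal component of the libraries (24.3% of variance) double transgenic scored 29.08, 30.52 and -6.818, 5xFAD 8.972, -10.31 and -6.297, Ulk1OV -35.84, -24.07 and -41.32 and WT 29.1, 22.14 and 4.842. The pairs overlapped there, with Ulk1OV farthest out.

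**Figure D5:**
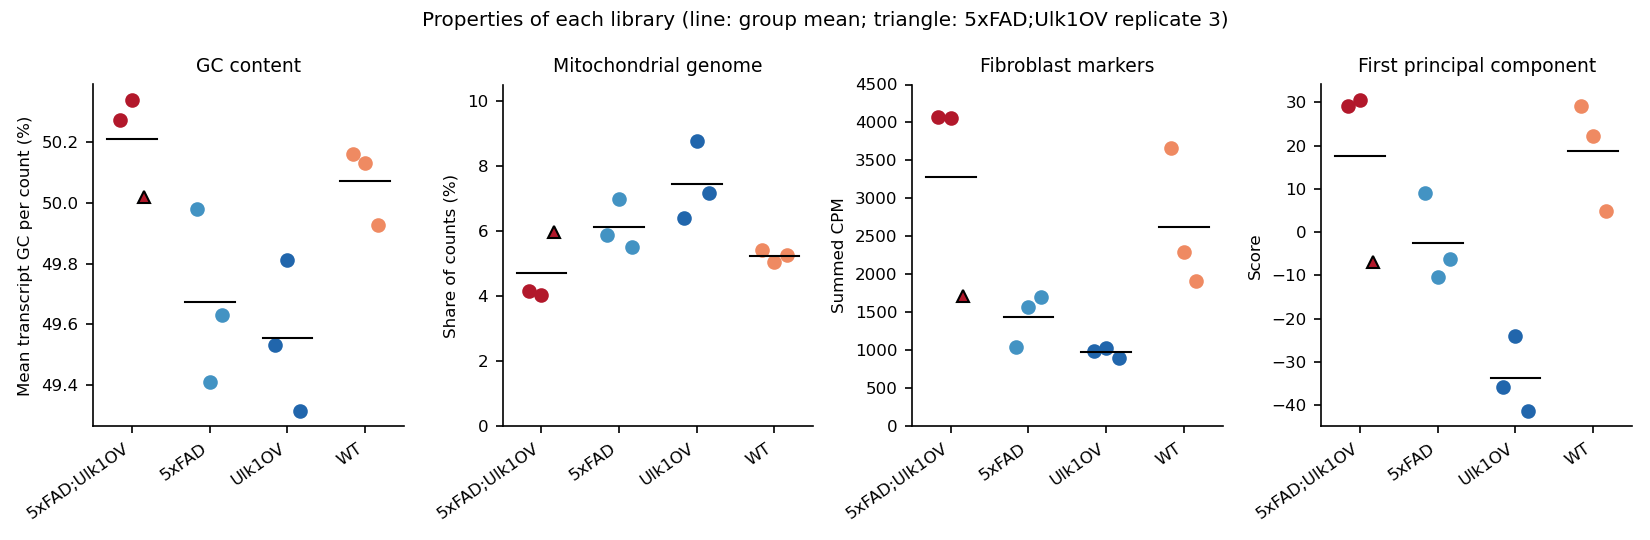
Mean transcript GC content, mitochondrial share, summed fibroblast markers and first principal component score of each library by group, with a line at each group mean and a triangle for the doubted library. In the first 3 panels the means of double transgenic and WT lie on one side and those of 5xFAD and Ulk1OV on the other.

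The labels record no batch, date, lane or dissection. A batch that held the double transgenic and WT libraries apart from the 5xFAD and Ulk1OV libraries would give the same contrast as the interaction, so no fit with such a batch as a term can be had, and the batch and the interaction cannot be told apart. The values that bear on its reach are those above. Library GC content and mitochondrial share moved with the pairs. Double transgenic against WT, 3 libraries against 3, called 0 genes, which does not show that they were the same. With the library trends over GC content and length taken out, 890 of 17227 genes were called. How much of the remaining difference a batch gives was not tested.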

How the data were processed

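Hippocampal RNA was sequenced in 12 NEBNext Ultra libraries. What the authors deposited are raw counts of reads per gene, without normalization, from which CPM were computed here. HISAT2, featureCounts and mm10 are named without versions in the submitters' processing notes, and the strand setting is not given in these sources. Genes that overlap others or have near-identical copies are therefore uncertain. From the counts, edgeR 4.0.16 in R 4.3.3 (filterByExpr, TMM, quasi-likelihood F test) modelled the 4 group means over the 12 libraries together. DESeq2 1.42.0, DESeq2 size factors, no filter, a replicate block, each library left out and loess offsets (span 0.4) over GC content and length of the longest GENCODE M21 transcript (17111 of 17227 genes matched) were alternatives. The edgeR fit was tested on simulated data. Gene names come from the table, in which 24 symbols had turned into dates. Named genes are, in each direction, the 12 largest interactions among called genes with at least 5 CPM and no overlap of pairs, and per list the 4 smallest p-values, while Ulk1, App and Prnp check the labels. Other list members given were picked after their values were seen. The members and the 44 lists were chosen with earlier results of these data known. Single library values were tested over all 924 ways to choose 6 of 12 libraries.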

Additional observations from a re-analysis of the deposited data

Results flagged for a closer look

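The interaction, which tests whether the difference between libraries with and without Ulk1 overexpression is the same on both backgrounds, called 2197 genes. It cannot be told apart from a batch shared by the pairs, and 890 genes were called after the GC and length correction. Each gene named here for the size of that difference is given by its log2 interaction, and all had no overlap between the 6 double transgenic and WT libraries and the 6 5xFAD and Ulk1OV libraries. In the higher direction these were Gm23935, a 57 base miRNA annotation inside Zc3h7a, at 4.89, Atp5k at 4.14, Hbb-bt at 3.77, Ptgds at 3.09, the sphingosine kinase gene Sphk1, which overlaps Gm29292, at 2.99, the pseudogene Rpl7a-ps5 at 2.64, Gm12715 at 2.55, the transporter gene Slc16a11 at 2.37, Mien1, which overlaps Erbb2, at 2.25, Gnas, which encodes a stimulatory G protein and overlaps the antisense Nespas, at 2.18, Gm10053 at 2.16 and Gm6793, which overlaps Terf2ip, at 2.13. In the lower direction they were Gm4950 at -2.54, Gm15427 at -1.50, Gm6395 at -1.44, Gm8121 at -1.44, mt-Nd6 at -1.36, Pcdhb5 at -1.36, Gm42547 at -1.22, E430024I08Rik at -1.19, Gm10250 at -1.17, Itgb3bp at -1.14, Bclaf3 at -1.13 and BC002059 at -1.11. All 24 were also called without the doubted library, and 20 after the correction, the exceptions being Gm42547, Itgb3bp, Bclaf3 and BC002059 (edgeR adjusted p = 0.063, 0.0512, 0.0706 and 0.0501).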

How the results depend on the processing

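The interaction call of 2197 genes (1171 higher, 1026 lower, 1194 with both pairs alike) stayed within 1.5 times of these counts under DESeq2 size factors, the DESeq2 test and no filter on low counts. With the GC content and length correction the counts were 890, 411, 479 and 463, and the gap divided by 4 as the limit left 413 alike. Leaving out 1 library gave 974 to 2596 calls, 571 to 1532 higher, 403 to 1084 lower and 585 to 1599 alike. The total fell by more than 1.5 times without double transgenic replicate 1 (1145) or 2 (1008), 5xFAD replicate 2 (1361) or 3 (1246), Ulk1OV replicate 3 (974) and WT replicate 1 (1048) or 2 (1255), where a group has only 2 libraries left. Double transgenic against WT called 138 genes with no filter and 0 to 5 with a library left out. 5xFAD against Ulk1OV called 133 with DESeq2, 682 with no filter, 2 with the replicate block, 2 with the correction and 0 to 18 with a library left out. The averaged 5xFAD effect called 15, 202 and 0 to 9 with DESeq2, no filter and a library left out, and that of Ulk1 overexpression 42, 437 and 0 to 4. The replicate block gave 2259 interaction calls. Same-numbered libraries did not deviate together (r from -0.18 to 0.22). With so few libraries this cannot show that the numbers carry no pairing. Of 149 called named genes, 71 lost their call with the correction, 7 with the block and 0 with DESeq2. The channel gene Hcn2 reversed from 0.50 to -0.31 with the correction (edgeR adjusted p = 0.143). The cause of these shifts was not tested. With 3 libraries a group, small differences are not detectable at this depth.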
